A study of Mus musculus with 8 samples.

Results

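The 75 genes described here are protein-coding mouse genes of cytochrome P450 families 1 to 4 in the GENCODE M21 annotation of mm10. They were chosen by symbol alone (Cyp, a family number from 1 to 4, 1 subfamily letter and a gene number), and 6 further genes whose symbols have another form, such as Cyp4a12a, are not members. They make up 0.342% of 21951 protein-coding genes and fall into 21 subfamilies. A peak was counted for a member when it overlapped the gene body by 1 bp.

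The peaks come from RNA immunoprecipitation with an antibody to NONO, a nuclear RNA-binding protein of paraspeckles, in nuclei from the liver of 14-week-old C57BL/6 animals of wild type genotype. Tissue was collected fasted at zeitgeber time 10, after 2 h of re-feeding at zeitgeber time 14, and after 10 h of re-feeding at zeitgeber time 22. Feeding state and time of day therefore cannot be told apart. All mice had a week of feeding in the dark phase only. A control immunoprecipitate with IgG came from mice of the same strain, genotype and age, and the labels give it no feeding state or time. Each of the 8 libraries (an immunoprecipitate and its input for each of the 4 conditions) pooled 2 experiments, so every condition had 1 library, no test between times was possible, and intervals below cover counting error only. The sex of the mice is not given in the sources used here.

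Cytochromes P450 of these families are haem enzymes of the endoplasmic reticulum that oxidise drugs, steroids, bile acids and fatty acids, with electrons passed on by the reductase Por. Hepatocytes hold most of the body's P450, and nuclear receptors such as PXR, CAR and PPARα and the aryl hydrocarbon receptor switch individual members on. Many members arose by gene duplication and stand in clusters of near-identical neighbours, above all the Cyp2c genes on chromosome 19 and the Cyp3a genes on chromosome 5.

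The 3 anti-NONO libraries held 18275033 to 21091048 tags and the IgG library 18995778. The lists held 38209 (fasted), 61737 (2 h), 50609 (10 h) and 55946 peaks (IgG). Peaks took about 11.59%, 26.05%, 17.32% and 53.22% of the tags. A single peak took 37.5% of the IgG library, so IgG levels relative to the library's total are 1.6 times higher when that peak is left out of the total. Of 10 hepatocyte markers, 3 (fasted), 4 (2 h), 6 (10 h) and 7 (IgG) carried a peak, with summed normalised tags (scaled to 10000000 tags in each library) of 4612.4, 8652.3, 15726.5 and 20932.8. Alb, which encodes albumin, had a peak at 10 h and in IgG, and Apoa1 and Serpina1a had none in any list. A peak had to exceed its input, so a marker without one may still be abundant. Kupffer cell markers (2 to 3 of 6 genes) summed to 14.2 to 60.8 normalised tags in the 4 lists and endothelial markers (2 to 4 of 6) to 298 to 750.2. No cholangiocyte marker carried a peak. Stellate cell markers (2 to 5 of 6 genes) summed to 46 to 82.1 in the anti-NONO lists and to 2511.3 in the IgG list, most of it over Reln, and Des had no peak in any list. The part of other cell types in the members' values was not tested, and in whole tissue fewer cells of a type and less RNA per cell cannot be told apart.

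Peaks lay over 37 of the 75 members, in 15 of the 21 subfamilies, and 38 members had none in any list. A peak was present over 29 members in the fasted list (38.7%, 95% exact Clopper-Pearson interval 27.6 to 50.6), 31 at 2 h (41.3%, 30.1 to 53.3), 33 at 10 h (44%, 32.6 to 55.9) and 29 in IgG (38.7%, 27.6 to 50.6). Over all protein-coding genes the shares were 28.4%, 33.9%, 32.7% and 34.6%. The members' share lay above the background in each list, and the background lay inside the members' interval in all 4. Neighbouring paralogs are not independent genes, so these intervals are if anything too narrow. With peaks of 3-fold over input or more, the members' shares were slightly below the background: 15 (20%), 18 (24%), 14 (18.7%) and 22 members (29.3%) had a peak, against 21%, 27.3%, 24.7% and 30.3% of all protein-coding genes.

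**Figure D1:**
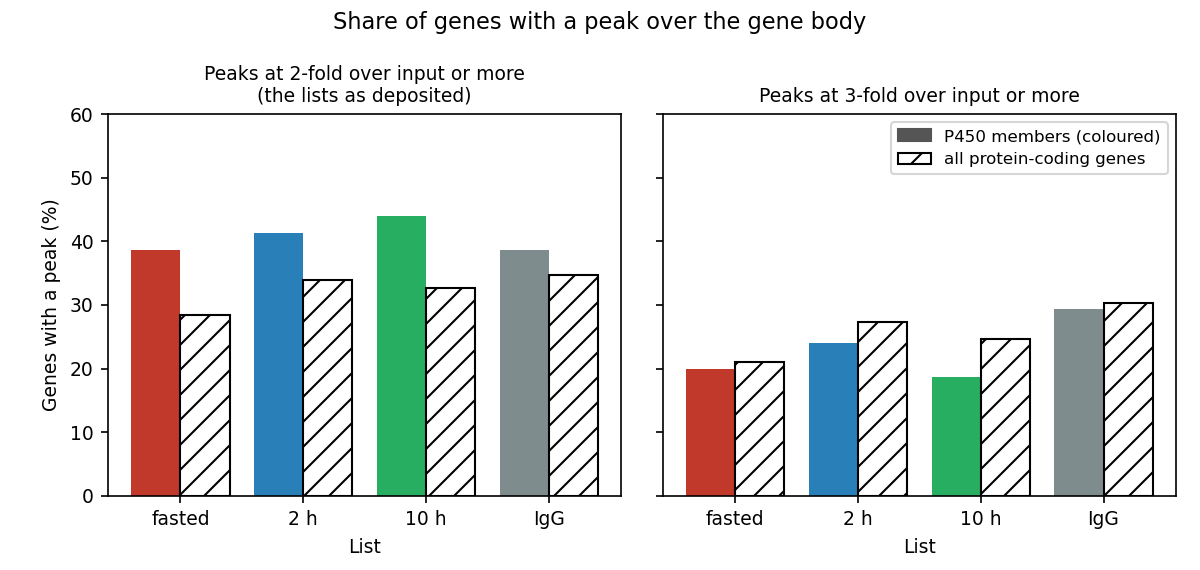
Share of genes with a peak over the gene body (%, vertical axis) in each list, for the 75 P450 members (coloured bars) and all protein-coding genes (hatched bars), with the lists as deposited on the left and peaks of 3-fold over input or more on the right. The coloured bars stand at 38.7% to 44% on the left, above the hatched ones, and at 18.7% to 29.3% on the right, below them.

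A peak that no IgG peak overlapped was found over 26 members in the fasted list (34.7%), 27 at 2 h (36%) and 30 at 10 h (40%), against 26.4%, 31.3% and 30% of all protein-coding genes. Of the 37 members with a peak, 25 had one at all 3 times, and an IgG peak lay over 23 of these. Beside these 25 of 75 members, 5162 of 21951 protein-coding genes had a peak at all 3 times. For the counts of members with or without an IgG peak no such background is given. Cyp2a5 and Cyp4f15 were the members with a peak at all 3 times and none in IgG. The other 6 members with no IgG peak were Cyp1a2, Cyp2b9, Cyp2c39, Cyp2d22, Cyp2j11 and Cyp4b1, and no member had a peak in IgG alone. Longer genes carried peaks more often in general. Of the members under 10 kb, 5 of 15 had a peak in some list (33.3%, against 18.8% of protein-coding genes of that length), of those from 10 to 30 kb 19 of 33 (57.6% against 51.4%), and of those of 30 kb or more 13 of 27 (48.1% against 63.6%).

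Member peaks lay mostly in introns. Of 303 member peaks in the 3 anti-NONO lists, 275 (90.8%) touched no exon of any annotated transcript of the gene. Exons made up 1.12% (fasted), 1.87% (2 h), 1.54% (10 h) and 3.97% (IgG) of the member bases under peaks, against 5.71%, 5.18%, 5.93% and 5.48% for all protein-coding genes. The members with peaks had 9.44% to 9.9% of their gene bodies in exons. The RNA came from nuclei, and the libraries were made from total RNA after removal of ribosomal RNA.

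The 37 members with a peak have 365 coding exons in their longest protein-coding transcripts, of 732 in all 75 members. Of these, 18 in 14 genes met a peak, 14 of them an anti-NONO peak and 4 an IgG peak alone, and 5 lay wholly under a peak. The haem-binding signature shows what the members share in their coding sequence, and it was chosen without regard to peaks. It is the stretch around the cysteine that holds the haem iron, and its amino acid pattern (F, then G, then C and G at fixed spacing) was found in 72 of 75 members. The 30 coding bases of this signature were read from the GENCODE transcripts on the gene's own strand. They are shown for members of several subfamilies, with the cysteine codon in capitals.
Cyp3a11: tttgggaatggacccaggaacTGCcttggc
Cyp3a25: tttggaaatggacccaggaacTGCataggc
Cyp2c29: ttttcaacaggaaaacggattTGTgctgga
Cyp2c38: ttctcagcaggaaaacgggttTGTgctgga
Cyp2j5: ttctcaatgggaaaaagagctTGTcttgga
Cyp2e1: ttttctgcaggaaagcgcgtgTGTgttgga
Cyp1a2: ttcggcttgggaaagcgccggTGCattggg
The search pattern sets the place of the cysteine codon, so it stands at the same place in each line. The 72 members held 58 different versions of these 30 bases.

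Coding exon 4 of Cyp2c68 was the member exon that lay wholly under peaks at 2 anti-NONO times. It is on the minus strand of chromosome 19, mm10, from 39735577 to 39735737. The 2 h peak over it held 74 normalised tags at 2.56-fold over input and the 10 h peak 138.4 at 2.1-fold. The same exon of the paralogs Cyp2c67 and Cyp2c40 is shown with it, since reads of these genes can be hard to place. Capitals mark bases that differ from Cyp2c68.
Cyp2c68: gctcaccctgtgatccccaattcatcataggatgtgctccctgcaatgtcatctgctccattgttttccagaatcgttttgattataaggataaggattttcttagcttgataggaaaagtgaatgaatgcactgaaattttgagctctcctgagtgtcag
Cyp2c67: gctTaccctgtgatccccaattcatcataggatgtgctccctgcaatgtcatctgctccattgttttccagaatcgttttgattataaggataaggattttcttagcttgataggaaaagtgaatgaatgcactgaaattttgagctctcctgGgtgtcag
Cyp2c40: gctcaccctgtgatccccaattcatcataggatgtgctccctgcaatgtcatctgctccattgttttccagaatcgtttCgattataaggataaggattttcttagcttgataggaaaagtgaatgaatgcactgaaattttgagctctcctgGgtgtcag
Each paralog differed from Cyp2c68 at 2 of 161 bases. Cyp2c67 had peaks in all 4 lists and Cyp2c40 had none in any. The nearest paralog by coding sequence was 95% identical or more for 12 of the 37 members with a peak and 7 of the 38 without. How reads that match several copies were treated is not given in the sources used here, so the split of peaks among such neighbours is uncertain.

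Summed over the 75 members, the peaks covered 98.6 kb (fasted), 99.4 kb (2 h), 100.4 kb (10 h) and 110.5 kb (IgG). Their summed signal was 8794.8, 8061.3, 12032.2 and 11010.3 normalised tags. The covered length was thus almost the same at the 3 times, and the signal was highest at 10 h. With peaks of 3-fold over input or more, which held under 1 in 10 of these tags, the sums were 721.3, 656.6, 690.2 and 816.6, with fasted the highest of the 3 times. On the scale without the largest IgG peak the IgG sum was 17612, above every anti-NONO sum. Of the tags in peaks over protein-coding genes, the members held 0.836% (fasted), 0.334% (2 h), 0.757% (10 h) and 0.779% (IgG).

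**Figure D2:**
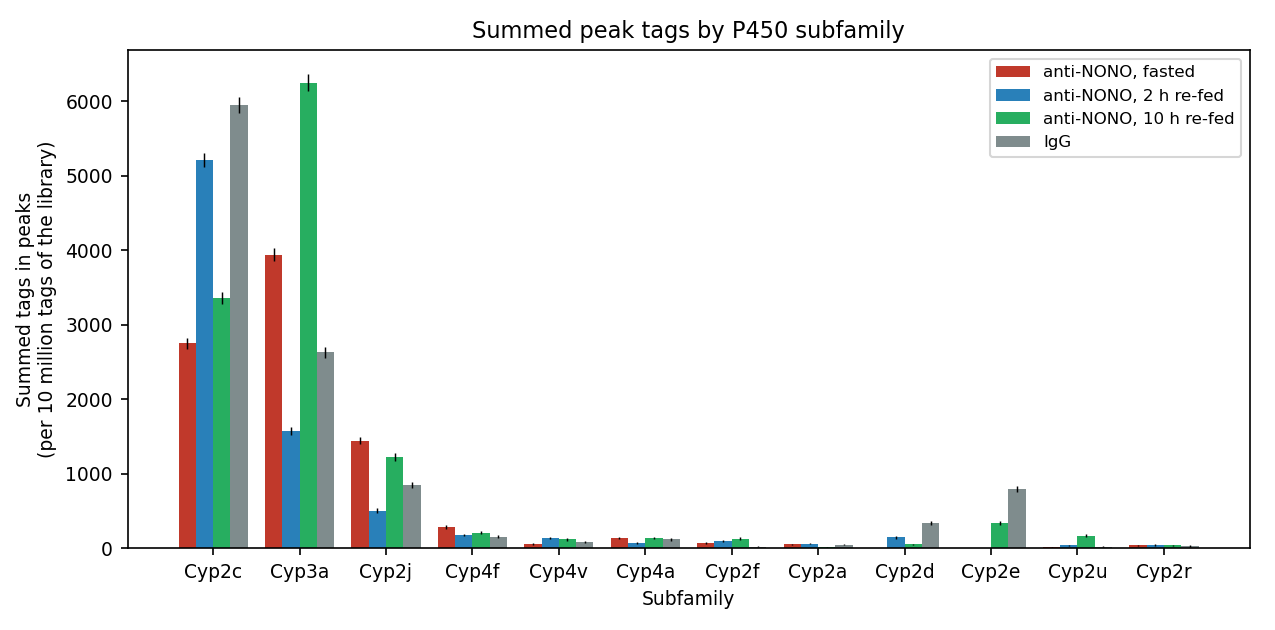
Summed normalised tags (scaled to 10000000 tags in each library, vertical axis) in peaks over the members of 12 subfamilies, 1 bar per list, with exact 95% Poisson intervals as error bars. Cyp2c, Cyp3a and Cyp2j hold most of the tags, with Cyp3a lowest at 2 h (1575.6) and Cyp2c highest among the anti-NONO lists at 2 h (5213.8).

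The subfamilies moved in different directions over the 3 times. Cyp2c (15 genes, 9 to 10 with a peak) went from 2749.8 normalised tags fasted to 5213.8 at 2 h and 3355.7 at 10 h, and stood at 5951 in IgG. Cyp3a (7 genes, 3 to 4 with a peak) went from 3941.5 to 1575.6 and 6250.2, with 2631.2 in IgG. Cyp2j (8 genes, 3 to 4 with a peak) went from 1443.1 to 501.3 and 1220.9, with 841.3 in IgG. Per kb under peaks, Cyp2c held 54.8, 108.3 and 72.4 normalised tags, Cyp3a 282.1, 104 and 302.6, and Cyp2j 61.4, 29.7 and 75.1, in the same order over the times except that Cyp2j was highest at 10 h. Cyp2c held 31.3%, 64.7% and 27.9% of the members' tags at the 3 times. In each list 3 genes held 48% (fasted: Cyp3a25, Cyp2c38, Cyp3a13), 58.7% (2 h: Cyp2c29, Cyp2c70, Cyp3a13), 59.1% (10 h: Cyp3a11, Cyp3a25, Cyp2c29) and 63% (IgG: Cyp2c29, Cyp3a11, Cyp3a25) of all member tags.

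Among the drug and steroid oxidising Cyp3a genes, Cyp3a11, the mouse counterpart of the main human drug-metabolising P450 and a PXR target (chromosome 5, 145854426 to 145879964, minus strand), had 749.8 normalised tags fasted, 520.1 at 2 h, 2847.6 at 10 h and 1602.4 in IgG. The 10 h value stood above all others, 3.8-fold above fasted (95% counting interval 3.59 to 4.02) and 5.48-fold above 2 h (5.13 to 5.85). Its input in the same peaks moved alike, with 293.6, 225.1, 1241.2 and 747.9 normalised tags. The peaks covered 1.98, 4.91 and 5.55 kb at the 3 times, and per covered kb they held 379.3, 105.9 and 513.4 normalised tags, again with the lowest value at 2 h and the highest at 10 h. Cyp3a25 (chromosome 5, 145977194 to 146009618, minus strand) had 2044 fasted, 466.1 at 2 h, 2626.6 at 10 h and 836.1 in IgG. It was 4.39-fold lower at 2 h than fasted (4.09 to 4.71), and its input was 4.56-fold lower. Per covered kb it held 1037, 188.2 and 852.2. Cyp3a13 had 952.8, 589.4 and 615.1 normalised tags at the 3 times and 87.4 in IgG, so it stood above IgG at each time. Cyp3a59, a close copy of Cyp3a25 (97.5% identical in coding sequence), had 194.9 fasted, no peak at 2 h, 160.9 at 10 h and 105.3 in IgG. Cyp3a16, Cyp3a44 and Cyp3a57 carried no peak.

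A single, mainly intronic region of Cyp3a25 shows the pattern in matched peaks. Between 145991607 and 145992703 it held 920 normalised tags fasted, 261.7 at 2 h, 952.7 at 10 h and 168.5 in IgG. The input levels there were 459.3, 112, 427.4 and 83, so the fold over input stayed between 2 and 2.34. The 2 h level was the lowest of the 3 times in the immunoprecipitate and in the input.

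Among the Cyp2c genes, which epoxidise arachidonic acid and hydroxylate drugs and steroids, Cyp2c29, a target of CAR (chromosome 19, 39269405 to 39330713, plus strand), had 610 normalised tags fasted, 2866.1 at 2 h, 1642.1 at 10 h and 4499.8 in IgG. It was 4.7-fold higher at 2 h than fasted (4.42 to 4.99), its input 4.49-fold higher, and IgG exceeded all 3 times. Its peaks covered 4.65, 14.6 and 5.99 kb at the 3 times, so that per covered kb it held 131.1, 197 and 274.3 normalised tags, highest at 10 h. Cyp2c70, which makes the muricholic bile acids of mice (chromosome 19, 40153353 to 40187333, minus strand), had 108.9, 1274.4 and 255.5 at the 3 times and 169.5 in IgG. Per covered kb it held 57.4, 336.1 and 65.2 at the 3 times. Its 2 h sum was 11.7-fold above fasted (10.2 to 13.5) and 4.99-fold above 10 h (4.52 to 5.51), with the input 12-fold and 5.57-fold higher. Most of it lay in a peak with 864.8 normalised tags at 2.05-fold that met no fasted and no IgG peak. An absent peak is not a level of 0. Fasted and 2 h peaks met only between 40158101 and 40159985. There the 3 times held 35.7, 291.1 and 27.4 normalised tags, in peaks of 757, 1884 and 626 bp. Cyp2c37 was also highest at 2 h among the 3 times, with sums of 204.4, 447.1 and 249.6, and had 585.3 in IgG. Per covered kb it was highest fasted, with 154.8 against 53.5 at 2 h and 42.7 at 10 h, and peaks covered 1.32 kb of the gene fasted and 8.36 kb at 2 h.

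Cyp2c38, an arachidonic acid epoxygenase (chromosome 19, 39389556 to 39463075, minus strand), ran the other way. It had 1221.9 normalised tags fasted, 102.9 at 2 h, 234.3 at 10 h and 181.5 in IgG, with 22.6 kb of the gene under peaks when fasted and 4.47 kb at 2 h. The 2 h sum was 11.9-fold below fasted (10.3 to 13.7) and the input in the respective peaks 20.2-fold below. Per covered kb the values were 54.1 fasted, 23 at 2 h and 32.1 at 10 h. Its widest fasted peak, 7563 bp with 600.5 normalised tags, was the widest of any member and met no IgG peak. Its neighbours Cyp2c67 (235.8, 167.8, 306.9 and 47.4 in IgG) and Cyp2c68 (225.3, 118, 252.3 and 43.7 in IgG) were above IgG at each time. Cyp2c54 had 85.6, 168.3, 135.8 and 318 in IgG. Cyp2c50 (48.9, 57.3, 137.4 and 65.8 in IgG) and Cyp2c23 (9.03, 11.9, 134.7 and 40 in IgG) were highest at 10 h. Cyp2c39 had 1 peak, of 7.11 normalised tags at 10 h.

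The Cyp2j genes encode epoxygenases of arachidonic and linoleic acid. Cyp2j5 had 736.9 normalised tags fasted, 374 at 2 h, 887 at 10 h and 787.1 in IgG. Cyp2j9 (chromosome 4, 96568429 to 96591578, minus strand) had 436.6, 32.2 and 165.3 at the 3 times and 34.7 in IgG, and Cyp2j6 269.6, 59.6 and 146.7 with 19.5 in IgG. Both were lowest at 2 h, Cyp2j9 13.5-fold (10.6 to 17.6) and Cyp2j6 4.51-fold (3.71 to 5.52) below fasted, with inputs 14.1-fold and 5.56-fold lower. Per covered kb Cyp2j9 held 92.4, 19.3 and 33 at the 3 times and Cyp2j6 42.8, 25.6 and 25.9. Among fasted member peaks of 100 normalised tags or more, the largest fold over input, 10.6, was that of a Cyp2j5 peak of 5416 bp with 100.3 normalised tags. At the same place the 2 h list held a peak of 4256 bp with 73.5 normalised tags at 7.03-fold, and both met IgG peaks. Cyp2j11 had 35.5 at 2 h and 21.9 at 10 h.

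The fatty acid ω-hydroxylases of family 4 had lower sums. Cyp4a10 and Cyp4a14, which PPARα induces in fasting, had 68.5 and 64.7 normalised tags fasted, 52.7 and no peak at 2 h, 37.2 and 64 at 10 h, and 35.3 and 37.9 in IgG. The fasted peak of each lay apart from its peaks at the other times and met no IgG peak. Cyp4a32 had 17.1 at 2 h, 32.3 at 10 h and 43.7 in IgG. Cyp4f15 had 142.6, 35.6 and 103.4 and no IgG peak, and was 4.01-fold lower at 2 h than fasted (3.1 to 5.24), with 92.7 and 37.8 per covered kb. Cyp4f13 had 117, 35.1 and 43.8, with 48.4 in IgG, while Cyp4f14, a leukotriene ω-hydroxylase, was lowest fasted (11.9, 78.7 and 32.8, with 88.9 in IgG). Cyp4f17 had 11.9, 23.7 and 27.4, with 15.3 in IgG. Cyp4v3 was 2.5-fold higher at 2 h than fasted (2.01 to 3.13), with 55.2, 137.9 and 116.5 and 77.4 in IgG. Its covered length rose from 1 to 3.89 kb, and per covered kb it was lower at 2 h (35.5 against 55). Cyp4b1 had 8.56 fasted and 13.8 at 2 h.

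Cyp2e1, which oxidises ethanol and acetone and is abundant around the central vein, had no peak fasted or at 2 h, 335.5 normalised tags at 10 h and 790.3 in IgG. Its 10 h peaks stood at 2.02-fold and 2.25-fold over input, at the edge of what the lists admit, and both met IgG peaks. Cyp2a5, the coumarin hydroxylase (98.5% identical in coding sequence to Cyp2a4, which had no peak), kept 1 peak at the same place in all 3 lists, with 49.4, 23.7 and 9.3 normalised tags at 2.19-fold, 4.33-fold and 3.69-fold. Cyp2f2, which oxidises naphthalene, likewise kept 1 region, with 70.8, 94.4 and 128 and 16.3 in IgG, at 2.8-fold, 2.87-fold and 3.85-fold. The vitamin D hydroxylase Cyp2r1 varied least of the 25 members with a peak at all times, with sums of 35.2, 40.8 and 37.2 and 26.8 in IgG. These sums came from different places in the gene: neither fasted peak met a peak of another time, and 1 region near the gene start was shared by 2 h (31.8) and 10 h (24.6). Cyp2u1, a fatty acid hydroxylase, had 11.9, 36 and 167.5, with 16.9 in IgG. Cyp2d22 had 138 at 2 h and 49.8 at 10 h, Cyp2a12 36.5 at 2 h and 47.9 in IgG, and Cyp2d9 6.64 at 2 h and 341.7 in IgG. The aryl hydrocarbon receptor target Cyp1a2 had 20.8 at 10 h and Cyp2b9 12.8 fasted, 1 peak each.

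**Figure D3:**
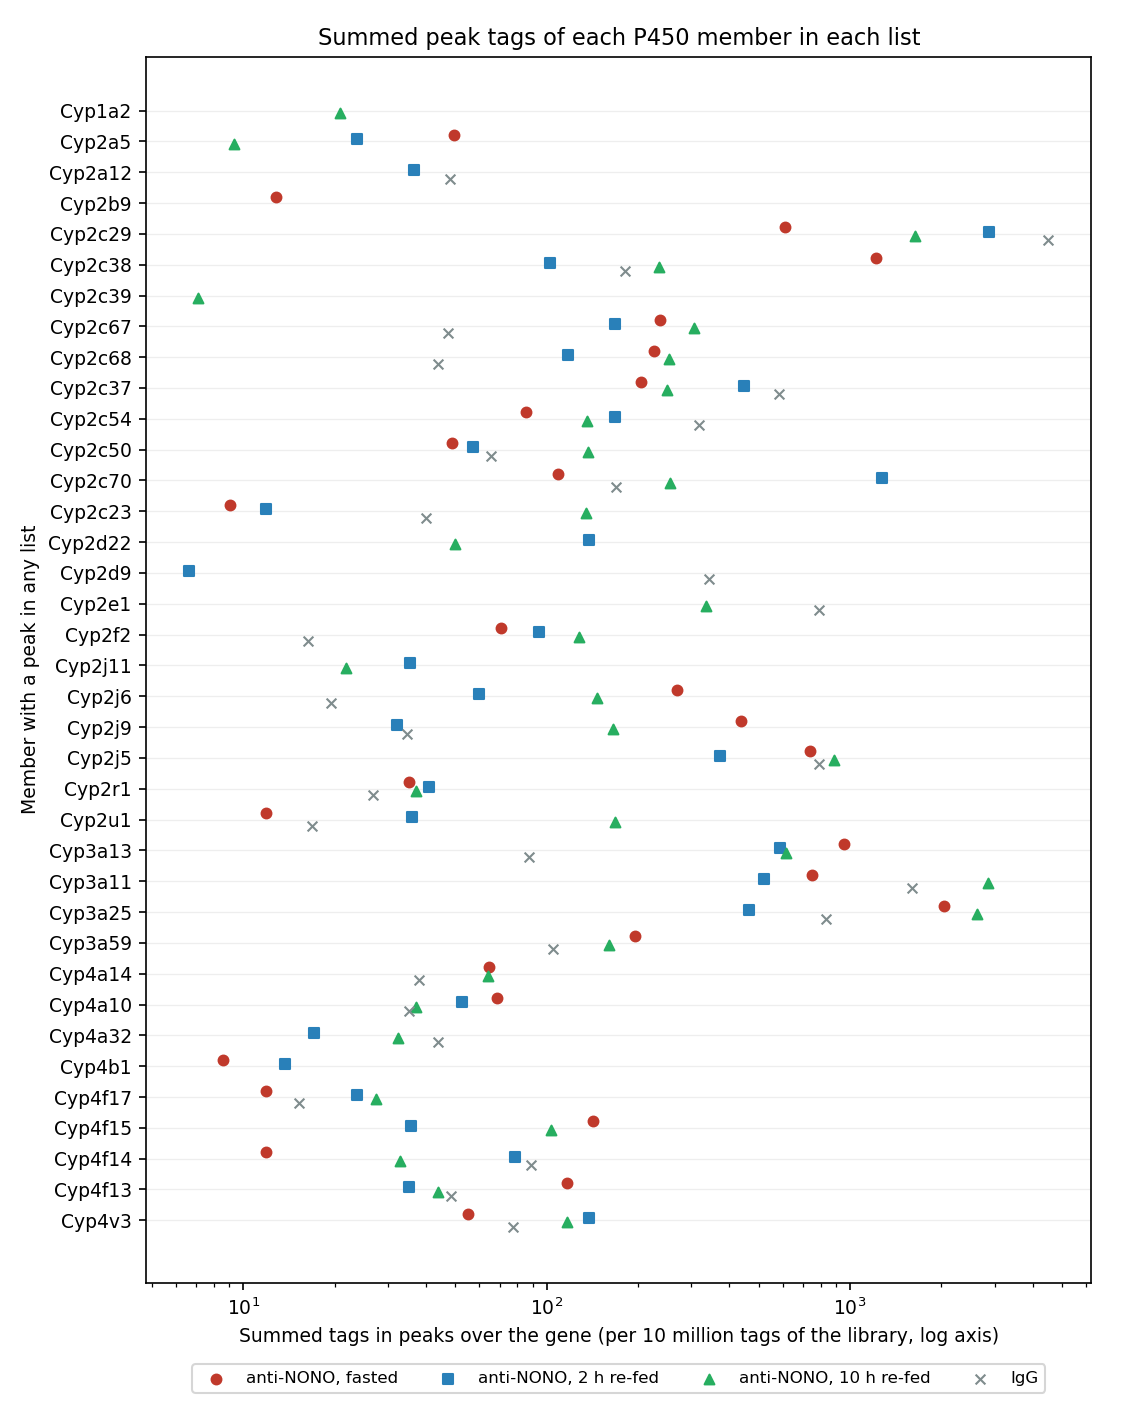
Summed normalised tags (scaled to 10000000 tags in each library, log axis) in peaks over each of the 37 members with a peak in any list, 1 symbol per list and no symbol where the list holds no peak. Values run from 6.64 (Cyp2d9, 2 h) to 4499.8 (Cyp2c29, IgG), and the order of the lists differs from gene to gene.

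The members with no peak in any list were Cyp1a1, Cyp1b1, Cyp2a4, Cyp2a22, Cyp2b10, Cyp2b13, Cyp2b19, Cyp2b23, Cyp2c40, Cyp2c55, Cyp2c65, Cyp2c66, Cyp2c69, Cyp2d10, Cyp2d11, Cyp2d12, Cyp2d26, Cyp2d34, Cyp2d40, Cyp2g1, Cyp2j7, Cyp2j8, Cyp2j12, Cyp2j13, Cyp2s1, Cyp2t4, Cyp2w1, Cyp3a16, Cyp3a44, Cyp3a57, Cyp4a29, Cyp4a31, Cyp4f16, Cyp4f18, Cyp4f37, Cyp4f39, Cyp4f40 and Cyp4x1. They have a median length of 17 kb, against 24.1 kb for the 37 members with a peak. Of 7 members known as higher in female mouse liver, 1 carried a peak in any list (Cyp2b9, fasted), beside 37 of all 75 members, and nothing is read from so small a list. Of the 3 genes known as higher in males, Cyp2d9 is a member, and Cyp4a12a and Cyp4a12b, which the symbol rule leaves out, had 512.6 and 208.2 normalised tags fasted, 165.9 and 146 at 2 h, 12 and 143.3 at 10 h, and 46.3 and no peak in IgG.

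Between times, the members with a peak in both lists were compared at 2-fold in their summed tags. From fasted to 2 h, 6 of 26 members were higher (23.1%, against 45.3% of protein-coding genes) and 7 lower (26.9% against 7.69%). From fasted to 10 h, 9 of 27 were higher (33.3% against 32.1%) and 4 lower (14.8% against 9.06%). From 2 h to 10 h, 11 of 28 were higher (39.3% against 12.8%) and 4 lower (14.3% against 23.9%). The members' median log2 change was -0.08 from fasted to 2 h, where that of all protein-coding genes was 0.86, 0.29 against 0.53 from fasted to 10 h, and 0.38 against -0.34 from 2 h to 10 h. The 3 comparisons share libraries. With peaks of 3-fold or more, 9 to 10 members were in both lists and each count on the sums was 1 or 2.

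A sum over peaks also moves with the length called as peaks, so the same members were compared per covered kb, a measure added after the sums had been seen. From fasted to 2 h, 2 of 26 members were then higher (7.69% against 3.69% of protein-coding genes) and 10 lower (38.5% against 5.28%). From fasted to 10 h, 5 of 27 were higher (18.5% against 4.83%) and 6 lower (22.2% against 3.78%). From 2 h to 10 h, 5 of 28 were higher (17.9% against 4.36%) and 2 lower (7.14% against 3.02%). The members' share was above the background in each direction, but nothing is read from the directions with 2 members. The share stood furthest above it for the 10 members lower at 2 h than fasted. These were Cyp2a5, Cyp2c37, Cyp2c38, Cyp2j9, Cyp3a11, Cyp3a13, Cyp3a25, Cyp4a10, Cyp4f13 and Cyp4f15. Of member peaks, 16.7% (fasted), 19.6% (2 h) and 17.3% (10 h) held 100 normalised tags or more. Over protein-coding genes 3.33%, 7.73% and 5.26% of peaks did. Whether this size sets the difference in shares was not tested. Of the members past 2-fold in their sums, 2 of 13 (Cyp2c37 and Cyp4v3), 2 of 13 (Cyp4f13 and Cyp4v3) and 1 of 15 (Cyp4f14) had the opposite direction per covered kb in the 3 comparisons.

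Of the 25 members with a peak at all 3 times, 8 were highest fasted, 7 at 2 h and 10 at 10 h, where the shares among 5162 protein-coding genes with peaks at all times were 12.8%, 58.8% and 28.4%. At 2 h 11 of the 25 members (44%) had their lowest value, against 14.3% of those genes. These 11 were Cyp2c38, Cyp2c67, Cyp2c68, Cyp2j5, Cyp2j6, Cyp2j9, Cyp3a11, Cyp3a13, Cyp3a25, Cyp4f13 and Cyp4f15, that is, 3 Cyp3a, 3 Cyp2j, 3 Cyp2c and 2 Cyp4f genes. Cyp2c29, Cyp2c37, Cyp2c54 and Cyp2c70, in the same cluster as the 3 Cyp2c genes, had their highest value at 2 h. Per covered kb 16 of the 25 members (64%) were lowest at 2 h, but so were 52.3% of the protein-coding genes. The highest sum of a member was a median of 3.33 times its lowest, against 2.69 times for all.

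**Figure D4:**
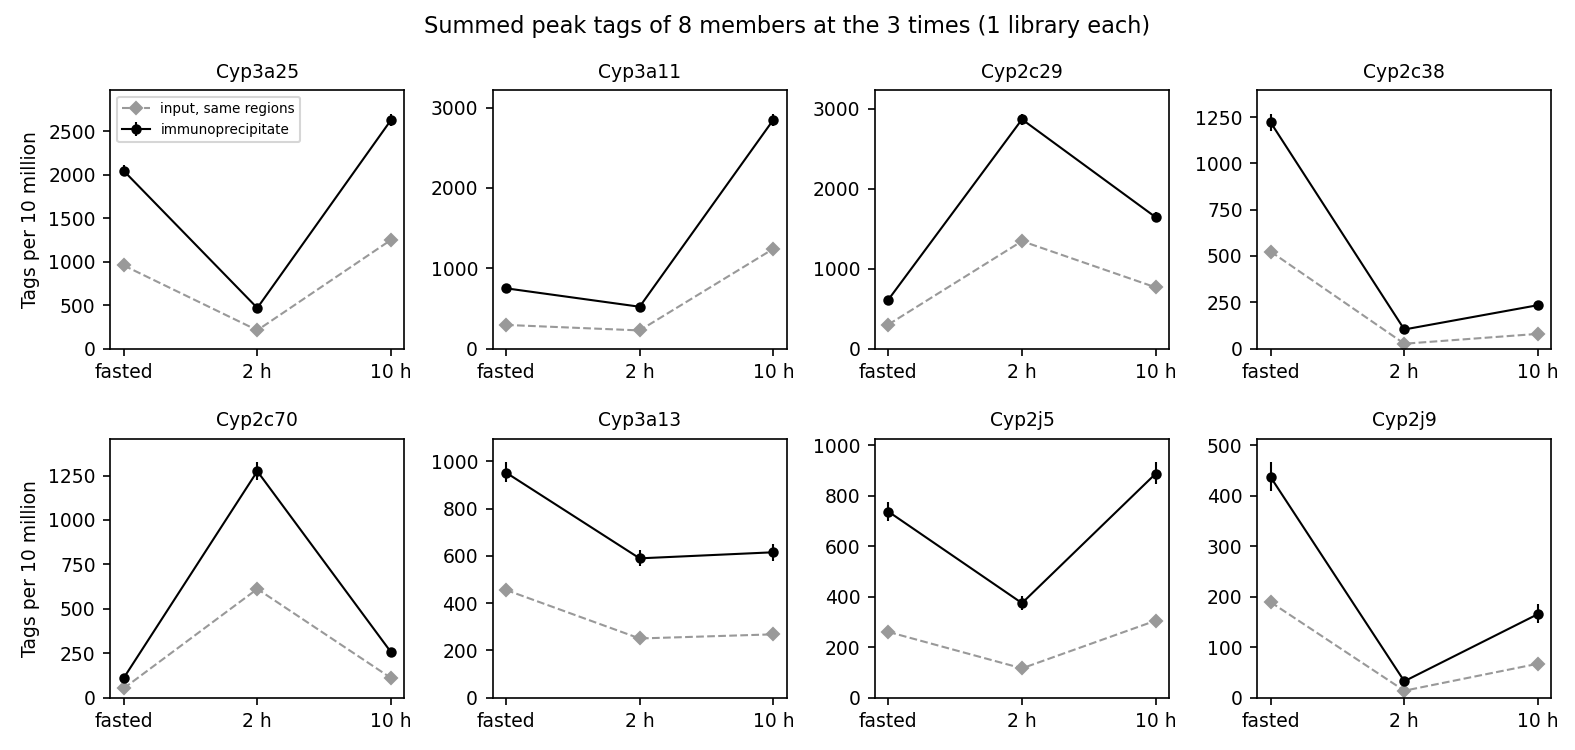
Summed normalised tags (vertical axes, from 0) in the anti-NONO immunoprecipitate (black, with exact 95% Poisson intervals) and in the input over the same peaks (grey) for 8 members at the 3 times, 1 library each. In every panel the input follows the immunoprecipitate, for example with 524, 25.9 and 79.1 input tags for Cyp2c38 against 1221.9, 102.9 and 234.3. The peaks summed are those of each time and differ between the times.

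The input moved with the immunoprecipitate in nearly every case. The summed input in the members' peaks changed in the same direction as the summed immunoprecipitate in 25 of 26, 27 of 27 and 27 of 28 members (2 h against fasted, 10 h against fasted and 10 h against 2 h), and in 94.4%, 94% and 93.3% of all protein-coding genes with peaks in both lists. Each sum was taken over the peaks of its own time, so immunoprecipitate and input both move with the length called as peaks. Overlapping peaks of any list, IgG included, were also joined into regions along each member. In regions that held peaks of both times, the sign was the same in 30 of 32, 45 of 47 and 41 of 46. The peaks of both times can differ in width there and need not overlap each other, so these are not matched peaks. There the immunoprecipitate changed by a median of 1.3, 0.96 and 0.89 on the log2 scale in either direction and the fold over input by a median of 0.23 in all 3 comparisons. A listed peak must be 2-fold over its input, which limits how far both can part. Whether binding of NONO to these RNAs changed beyond their amount was not tested.

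Member peaks lay close to the 2-fold limit. Their median fold over input was 2.43 (fasted), 2.43 (2 h), 2.4 (10 h) and 2.89 (IgG), against 2.8, 3.09, 2.82 and 4.16 for all peaks over protein-coding genes. Under 3-fold were 66 of 96, 67 of 97, 84 of 110 and 64 of 121 member peaks. These were 68.75%, 69.1%, 76.4% and 52.9%, against 56.5%, 46.7%, 57.1% and 25.3% of all peaks over protein-coding genes. The median input level in member peaks was 11.8, 10.9, 12.7 and 10.1 normalised tags, against 6.31, 5.48, 6.72 and 2.53. The largest member peaks of the anti-NONO lists, over Cyp3a11 at 10 h (1459.9 normalised tags, rank 18 in its list), Cyp3a25 fasted (1124, rank 23) and Cyp2c70 at 2 h (864.8), stood at 2.37-fold, 2.27-fold and 2.05-fold. Among peaks of 100 normalised tags or more, the median fold was 2.155, 2.19, 2.23 and 2.18 over members in the 4 lists. Over protein-coding genes it was similar, at 2.22, 2.3, 2.21 and 2.4. Of the anti-NONO member peaks, 86 reached 3-fold, led in number by Cyp2c68 (15) and Cyp2c38 (11).

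**Figure D5:**
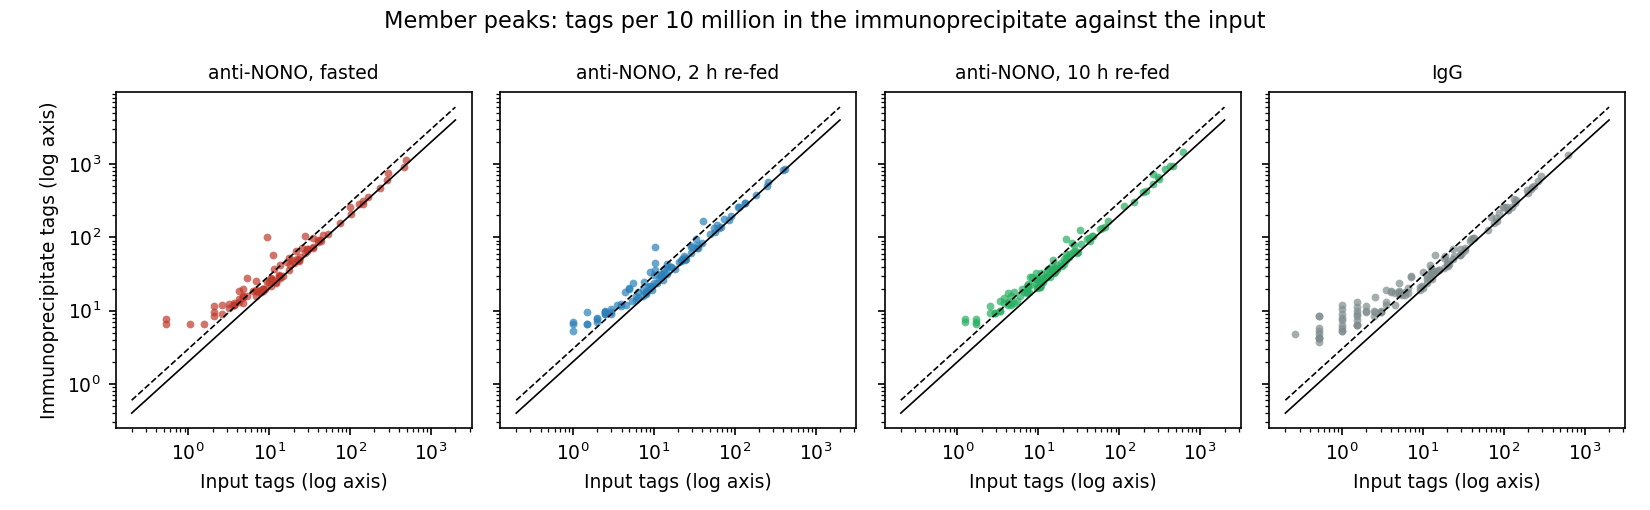
Tags per 10000000 in the immunoprecipitate (vertical log axis) against the input (horizontal log axis) for every member peak of each list, with lines at 2-fold (solid) and 3-fold (dashed). Above 100 immunoprecipitate tags nearly all peaks lie between the lines, and the peaks beyond 3-fold are mostly small ones, among them the IgG peaks with under 10 tags.

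Against IgG, 23 members with a peak at all 3 times could be set side by side. The IgG sum exceeded all 3 anti-NONO sums for Cyp2c29, Cyp2c37, Cyp2c54 and Cyp4f14 and lay below all 3 for Cyp2c67, Cyp2c68, Cyp2f2, Cyp2j6, Cyp2r1, Cyp3a13 and Cyp4a10, with 12 in between. On the scale without the largest IgG peak, Cyp2j5 and Cyp2r1 joined the first group, Cyp4a10 moved between, and 5 stayed below. Of the member peaks, 29 of 96 fasted (30.2%), 45 of 97 at 2 h (46.4%) and 36 of 110 at 10 h (32.7%) met an IgG peak, against 34.6%, 39.9% and 40.1% of peaks over protein-coding genes.

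RefSeq promoter windows of GRCm38.p6 (250 bases before to 50 after the gene start) were at hand for 62 of the 75 members, and 6 of these met a peak in some list (Cyp2a12, Cyp2d40, Cyp2j5, Cyp2r1, Cyp3a13 and Cyp4f14). Of the 69 windows of these members, 1.45% (fasted), 8.7% (2 h), 1.45% (10 h) and 5.8% (IgG) met a peak, that is 1, 6, 1 and 4 windows, 3 of the 2 h ones being overlapping windows of Cyp4f14. Of all 32851 windows, 0.813%, 3.18%, 1.85% and 3.45% did. Cyp3a13 and Cyp2r1 are shown because anti-NONO and IgG peaks covered the same bases there. The 250 upstream bases follow, 5′ to 3′ on the gene's own minus strand, with capitals for the bases under every peak listed there.
Cyp3a13 (chr5:137921620-137921869): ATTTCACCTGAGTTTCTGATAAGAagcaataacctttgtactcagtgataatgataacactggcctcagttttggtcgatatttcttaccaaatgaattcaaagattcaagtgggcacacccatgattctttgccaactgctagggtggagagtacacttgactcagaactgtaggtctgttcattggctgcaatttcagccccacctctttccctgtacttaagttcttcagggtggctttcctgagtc
Cyp2r1 (chr7:114562973-114563222): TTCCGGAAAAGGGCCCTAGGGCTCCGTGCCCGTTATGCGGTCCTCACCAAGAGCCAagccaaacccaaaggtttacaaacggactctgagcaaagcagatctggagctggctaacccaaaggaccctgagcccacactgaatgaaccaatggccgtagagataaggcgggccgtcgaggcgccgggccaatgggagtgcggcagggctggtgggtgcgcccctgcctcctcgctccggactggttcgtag
Over the Cyp3a13 window the fasted, 2 h and IgG peaks held 6.66, 10.4 and 11.1 normalised tags at 12.7-fold, 41.9-fold and 5.46-fold. The 12.7-fold and 41.9-fold values rest on very little input, 0.52 normalised tags for the fasted peak. The 2 h and IgG peaks lie upstream of the gene body and so outside the members' counts. Over the Cyp2r1 window the 2 h peak held 31.8 at 2.2-fold and an IgG peak 8.42 at 8.32-fold. The letters TATAAA, on either strand, stood in 27 of the 69 member windows (39.1%) and in 13.6% of all windows, and in neither of the sequences shown.

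For genes that work with the members or regulate them, the shares with a peak are to be read beside the 28.4%, 33.9%, 32.7% and 34.6% of all protein-coding genes in the 4 lists, and gene length was not matched. Of 8 partner genes, 7 (fasted), 5 (2 h), 7 (10 h) and 7 (IgG) had a peak, so the IgG list held as many as the fasted and 10 h lists. Por, the electron donor, had 136, 112.8 and 8.76 normalised tags at the 3 times and 219.5 in IgG. Alas1, the rate-limiting enzyme of haem synthesis, had 223.5 fasted, no peak at 2 h, 304.2 at 10 h and 552.8 in IgG. Of 13 receptors and factors, 10 (76.9%), 10 (76.9%), 11 (84.6%) and 11 (84.6%, IgG) had a peak. The PXR gene Nr1i2 had 291.3, 623.1 and 267.7, with 269 in IgG, and the CAR gene Nr1i3 had a peak at 10 h (260.5) and in IgG (1807.8) and none in the other lists. Of 33 conjugation genes, 10 (30.3%), 16 (48.5%), 17 (51.5%) and 16 (48.5%, IgG) had a peak. Of 19 P450 genes of other families, 4 (21.1%), 6 (31.6%), 6 (31.6%) and 5 (26.3%, IgG) did. This is close to the share of all genes at 2 h and 10 h and below it in the other 2 lists, and nothing is read from so small a list. Among the latter Cyp7b1, an oxysterol hydroxylase, had 6729.9, 34951.4 and 3395.2 normalised tags and 5874.6 in IgG, more at 2 h than all 75 members together.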

How the data were processed

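The deposited tables are HOMER peak lists, 1 each for the 3 anti-NONO libraries and the IgG library, called against the condition's own input in windows of 500 bp joined within 1000 bp, at 2-fold or more over input, per the file headers. Reads were checked with FastQC 0.11.2 and aligned to mm10 with STAR 2.4.0k, per the submitters' processing notes. The handling of reads with several matches is not given in the sources used here, and peaks join both strands per the file headers, so antisense RNA cannot be told from the gene's own.

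The deposited normalised tag count is a signal per 10000000 tags of the library. The deposited total and control tags were made by the authors' caller and give the tag count of the immunoprecipitate and of the input, with the input scaled to the immunoprecipitate in the 10 h and IgG lists and the immunoprecipitate scaled to the input in the fasted and 2 h lists. The fold over input is the authors' ratio, and the deposited score of HOMER was used to rank peaks when lists were set to equal length.

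From these, peaks were joined to GENCODE M21 gene bodies by 1 bp, and tags were summed per gene. The input level is the normalised tag count times control over total tags. The intervals are exact at 95% (Poisson for tags, conditional binomial for ratios, Clopper-Pearson for shares). They cover counting error only, since the reads carry no molecular identifiers. A gene was counted as higher or lower between 2 times at 2-fold. An absent peak is not a level of 0. With 1 library per condition no p-value was computed. Python 3.11.15, numpy 2.4.6, pandas 2.3.3, scipy 1.17.1, Biopython 1.88 and matplotlib 3.10.9 were used, and the joins were tested on simulated data. Promoter sequences are from RefSeq (GRCm38.p6) and coding sequences from the GENCODE transcripts.

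Genes were named by rule: the 6 members with the largest sums in each list, up to 4 on each side of each pair of times with 30 tags or more in both lists, members with a peak at 1 time and 30 tags or more, and members with a peak at all 3 times and none in IgG. Any other member with a peak could be named with its subfamily. Members, gene lists and rules were chosen with earlier results of these data known. The alternatives tried were peaks of 3-fold or more, lists of equal length, the peak midpoint in the gene body, tags in proportion to the peak's width in the gene body, no peaks over a gene that is no member, a wider symbol rule, IgG-free peaks, a rescaled IgG total and, added after the data were seen, tags per covered kb of the gene.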

Additional observations from a re-analysis of the deposited data

How the results depend on the processing

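Of 101 values recomputed under an alternative for 21 results, 68 stayed within 1.5 times the count or within the counting interval of the sum and 33 moved. With peaks of 3-fold over input or more, 15 (fasted), 18 (2 h) and 14 (10 h) members had a peak. The IgG list was cut alike, and 14, 15 and 14 members had a peak that no IgG peak of 3-fold or more overlapped. Member peaks then numbered 30, 30, 26 and 57 (IgG), with summed normalised tags of 721.3, 656.6, 690.2 and 816.6. The counts of members at 2-fold or more became 1 higher and 1 lower (2 h against fasted), 1 and 2 (10 h against fasted) and 1 and 2 (10 h against 2 h), from 9 to 10 members in both lists. Where IgG-free meant no IgG peak anywhere on the gene, 4, 5 and 6 members remained. No share of all protein-coding genes is given for the IgG-free counts under these alternatives, and nothing is read from them. With IgG-free peaks alone, 7 of 23 members were higher at 10 h than fasted and 7 lower, beside 9 and 4 of 27 with all peaks. Per covered kb, chosen after seeing the data, 2 members were higher at 2 h than fasted, 5 higher at 10 h than fasted, and 5 higher and 2 lower at 10 h than at 2 h. The summed tags became 8632.2 (fasted) with the peak midpoint in the gene body, 9515.6 (fasted) and 8373.2 (2 h) with the wider symbol rule, 7796.8 (2 h) with every list at the length of the shortest, and 17612.1 (IgG) outside the largest IgG peak. The cause of these moves was not tested, beyond the fewer peaks or other totals that each alternative sets.

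No paired analysis was possible because there was a single library per condition, and no replicate was left out for the same reason. Counting error is the only error measured, so the spread between experiments is unknown. An absent peak says that a region was under 2-fold over input or under the tag threshold.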
